A study of Mus musculus and Homo sapiens with 30 samples.

Results

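The genes described here are 10 mouse genes of the endoplasmic reticulum (ER) that fold proteins or answer to misfolded ones: Hspa5, Hsp90b1, Calr, Pdia4, Dnajb9, Sdf2l1, Creld2, Manf, Herpud1 and Xbp1. For 6 of them the human counterparts HSPA5, HSP90B1, PDIA4, DNAJB9, HERPUD1 and XBP1 were taken by Ensembl ID. They were chosen by name with earlier results of these data known, so their counts beside all genes are a description. They stand among 56980 mouse and 61552 human gene IDs counted in 30 libraries of polyadenylated RNA. The 3 cell lines studied were SkBr3, a human breast cancer line, E0771, a mouse mammary cancer line, and NMuMG, a mouse mammary gland epithelial line. SkBr3 had 4 libraries in each medium, and E0771 and NMuMG had 3. Cells grew for 36 h and then spent 16 h in plain growth medium (the control) or in 50% growth medium mixed with 50% secretome, which is medium conditioned by inguinal adipocytes, labelled lean or obese. All 3 lines were kept in DMEM with 10% FBS. For NMuMG the labels also give insulin at 10 mcg/ml and glucose at 4.5 g/L, and they state neither level for the other lines. In a comparison of lines the line and its medium therefore cannot be told apart. The control wells held no conditioned medium, so the lean and obese groups are the only pair matched for it. The labels do not say how many animals gave the secretome or whether replicates were separate cultures, and p-values then measure only the spread between these libraries, which may be technical.

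Proteins that enter the ER are folded by chaperones and disulfide isomerases, and those that fail are sent back to the cytosol for degradation. When unfolded proteins build up, 3 membrane sensors, IRE1 (gene Ern1), PERK (Eif2ak3) and ATF6, start the unfolded protein response. IRE1 splices the Xbp1 mRNA so that it encodes an active transcription factor, ATF6 is cut by the proteases encoded by Mbtps1 and Mbtps2 and moves to the nucleus, and PERK slows translation while favouring ATF4. XBP1 and ATF6 are known to raise transcription of ER chaperones, and secretory cells such as those of the mammary gland depend on this. Counts per gene do not separate spliced from unspliced Xbp1 mRNA, so every Xbp1 value below is total mRNA.

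Library totals ranged from 18479433 to 29195499 counts in SkBr3, from 22929035 to 31094119 in E0771 and from 23966897 to 29686456 in NMuMG. Each member passed the filter on low counts in its lines, and the lowest member count in a mouse library was 311, for Dnajb9. Replicates of a group differed by more than counting error, the chi-square over its degrees of freedom running from 1.93 to 13.7. The highest values involved lean replicate 3 of SkBr3 (9.46 to 13.7 against its other replicates), and lean replicate 3 of E0771 also stood apart from its other replicates (7.44 and 7.71), so member values without these libraries are given where they change a call. Of 7 epithelial markers, 5 had a mean over 1 CPM (counts scaled to the library total) in control NMuMG. In control E0771 only Krt8 did, and Epcam was at 0.0809 CPM. The summed epithelial level in NMuMG was 7110 to 7520 CPM in control medium, 7800 to 8090 with the lean and 6720 to 7020 with the obese secretome, and Krt5 was at 0.227, 5.99 and 0.478 CPM in that order. In E0771 the sum was 249 to 258, 245 to 248 and 229 to 241 CPM. The summed level of 6 mesenchymal markers in E0771 was 3870 to 3990 CPM in control libraries, 2290 to 2510 with the lean secretome and 3420 to 3740 with the obese secretome. In NMuMG it was 3240 to 3400, 2650 to 2790 and 3220 to 3400 CPM. Different genes made up these falls. From control to lean, Vim went from a mean of 3030 to 2020 CPM and Col1a1 from 684 to 204 in E0771, where Fn1 was at 0. In NMuMG Fn1 went from 1540 to 954 CPM, and Vim was at 1780 and 1770. The 6 adipocyte markers summed to at most 2.08 CPM in any mouse library, with 4 of the 6 at 0 in every lean library of each line, and their highest sums, 2.03 to 2.08 CPM, were in lean NMuMG. The part of these marker differences in the results below was not tested. Fewer cells of a type and less RNA per cell cannot be told apart in such bulk samples.

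Per kilobase of exon (RPKM, here CPM divided by the length of the gene's merged exons), the 4 abundant ER lumen proteins led in both mouse lines. In control E0771 the mean level was 329.9 RPKM for Calr, 272 for Hsp90b1, 162.1 for Hspa5 and 123.6 for Pdia4. Herpud1 followed at 50.7, Creld2 at 28.9, Manf at 25.5, Xbp1 at 18.8, Sdf2l1 at 12.4 and Dnajb9 at 5.79 RPKM. Control NMuMG had the same first 4 genes in the same order, from 254.8 RPKM for Calr to 77.4 for Pdia4. There Creld2 at 35.9 and Manf at 32.1 RPKM stood above Herpud1 at 25.2, and Sdf2l1 at 21.8 stood above Xbp1 at 16.6. The ranges of neighbouring genes in each order did not overlap over the 3 control libraries.

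Between the 2 mouse lines in control medium, 8 of the 10 members differed, against 80.5% of all genes tested. A gene is called changed here at an adjusted p under 0.05 (edgeR, Benjamini-Hochberg over all genes). Herpud1, whose membrane protein helps ER-associated degradation, showed the greatest excess in E0771, with a log2 difference of 0.88 (SE 0.0555). Pdia4 (0.55), Hsp90b1 (0.30), Calr (0.25) and Hspa5 (0.22) were also higher in E0771. Lower in E0771 were Sdf2l1 (-0.93), Manf (-0.46) and Creld2 (-0.43). Dnajb9 and Xbp1 were not called, at 0.14 (edgeR adjusted p = 0.197) and 0.05 (edgeR adjusted p = 0.495). Scaling by library totals alone moved the median of all genes by 0.111 in this comparison and brought Dnajb9 (0.25) and Xbp1 (0.16) past the threshold.

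The promoters of several members carry the ER stress response element, written ERSE, the textbook site of ATF6 and XBP1 acting with NF-Y. Its letters are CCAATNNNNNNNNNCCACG, searched on both strands from 250 bases before to 50 bases after the start of each gene (RefSeq, GRCm38.p6). Only 39 of 32851 such promoters held it (0.119%), and 9 of the 10 members have an entry in that table. The members with it were Hspa5, Hsp90b1, which had 2, Creld2 and Calr. A related element, ERSE-II, has the letters ATTGGNCCACG, shares the CCACG end with ERSE and begins with the reverse complement of CCAAT. It was in 12 promoters (0.0365%), one of them that of Herpud1, beginning 52 bases before the start. Neither set of letters was found in the windows of Pdia4, Dnajb9, Xbp1 and Sdf2l1. The members with ERSE did not all move in the same direction with the lean secretome. The windows of Hspa5, Hsp90b1 and Creld2 follow, without that of Calr, whose element lies 162 bases before the start. Capitals mark the element, and each line is written 5′ to 3′ along the strand that reads CCAAT first.
Hspa5, chr2:34772010-34772058, plus strand, element 65 bases before the start: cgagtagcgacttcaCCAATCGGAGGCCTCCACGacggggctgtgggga
Hsp90b1, chr10:86705623-86705671, minus strand, element 212 bases before the start: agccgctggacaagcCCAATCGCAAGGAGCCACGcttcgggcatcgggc
Hsp90b1, chr10:86705518-86705566, plus strand, element 107 bases before the start: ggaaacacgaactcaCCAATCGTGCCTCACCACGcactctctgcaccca
Creld2, chr15:88819505-88819553, minus strand, element 126 bases before the start: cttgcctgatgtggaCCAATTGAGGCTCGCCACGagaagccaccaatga

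With the lean secretome, most members fell in E0771, and Herpud1, of ER-associated degradation, and the transcription factor Xbp1 fell furthest. Against the obese secretome, 7 of the 10 members were lower and 1, Creld2, was higher, while 26.9% of the 13813 genes tested were lower and 25.8% higher. The median log2 fold change was -0.286 over the members and 0.00347 over all genes. Against control medium 6 members were lower and 2 higher, with 29% and 27.3% of all genes, and the medians were -0.161 and -0.0134. Both comparisons use the same lean libraries.

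**Figure D1:**
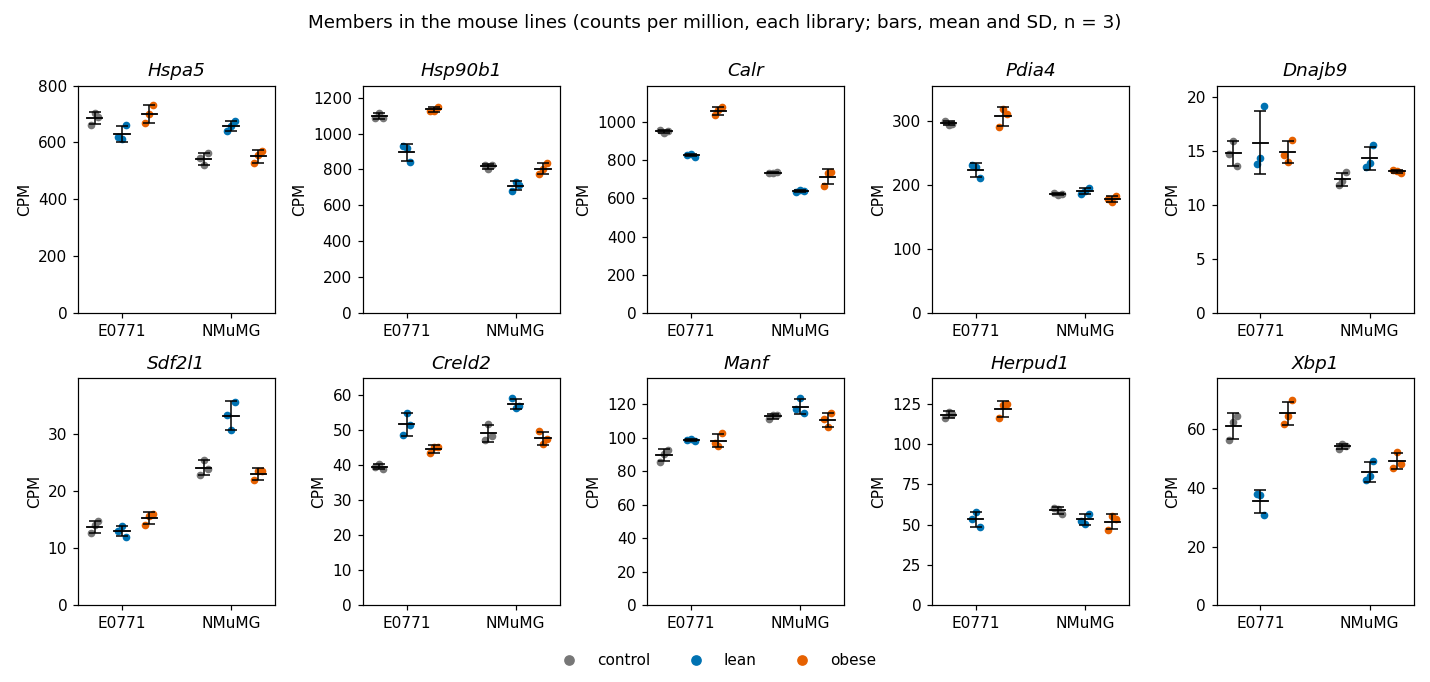
Level of each member in CPM (vertical axis from 0) in E0771 and NMuMG; each point is 1 library, grey for control, blue for lean and orange for obese secretome, and bars show mean and SD (n = 3). The lean libraries of E0771 lie well below the others for Herpud1 and Xbp1, and those of NMuMG lie above the others for Hspa5 and Sdf2l1.

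Herpud1 was at 116, 120 and 119 CPM in the 3 control libraries of E0771, at 53.3, 58.0 and 48.6 with the lean secretome, and at 116, 124 and 125 with the obese secretome. All 3 lean libraries were below every other E0771 library. Lean over obese, the log2 fold change was -1.19 (SE 0.0535, edgeR adjusted p = 8.36e-14), a level 56.3% lower, and that of lean over control was -1.15. In NMuMG the same gene was at 60.4, 59.6 and 56.6 CPM in control medium, at 52.3, 50.5 and 56.8 with lean and at 46.9, 55.1 and 53.8 with obese secretome. Lean and obese libraries overlapped there, with a log2 fold change of 0.03 (SE 0.0552, edgeR adjusted p = 0.682). Against control it was lower with lean secretome by -0.15 (edgeR adjusted p = 0.0321), a call that is lost in DESeq2 (adjusted p = 0.0676) and without control replicate 1 (0.124), control replicate 2 (0.105), lean replicate 1 (0.0974) or lean replicate 2 (0.15). The effect of lean against obese differed between the lines by -1.21 log2 units (E0771 minus NMuMG, SE 0.0811, edgeR adjusted p = 7.34e-14).

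Xbp1, the transcription factor downstream of IRE1, was at 56.2, 62.2 and 64.6 CPM in control E0771, at 37.7, 37.5 and 30.8 with lean secretome and at 61.9, 64.3 and 69.7 with obese secretome. Lean libraries did not overlap the others. Lean over obese came to -0.89 (SE 0.0735, edgeR adjusted p = 7.9e-09), and to -0.80 without lean replicate 3, its lowest library. In NMuMG, Xbp1 was at 53.1, 54.7 and 54.4 CPM in control medium, 42.6, 44.0 and 49.2 with lean and 46.8, 52.2 and 48.2 with obese secretome. It fell with lean secretome against control (-0.26, SE 0.0527, edgeR adjusted p = 0.000163) but overlapped between lean and obese (-0.12, edgeR adjusted p = 0.0885). That second value passed the threshold without lean replicate 3 (-0.18, edgeR adjusted p = 0.0119) or obese replicate 1 (-0.15, edgeR adjusted p = 0.0428). Between the lines, the lean-against-obese effect differed by -0.76 log2 units (SE 0.0981, edgeR adjusted p = 3.52e-07).

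Pdia4, a disulfide isomerase, was at 300, 293 and 296 CPM in control E0771, at 232, 228 and 211 with lean and at 291, 319 and 311 with obese secretome. The lean libraries stood below all others, and lean over obese came to -0.46 (SE 0.0419, edgeR adjusted p = 2.45e-09). NMuMG gave 186, 190 and 195 CPM with lean and 178, 173 and 182 with obese secretome, against 188, 184 and 186 in control medium. Its small rise of lean over obese (0.10, edgeR adjusted p = 0.0204) is lost without lean replicate 2 (edgeR adjusted p = 0.0521), lean replicate 3 (0.0909) or obese replicate 2 (0.101), and with no filter on low counts (0.0558). The difference between the lines was -0.54 (SE 0.0544, edgeR adjusted p = 1.81e-10).

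Hspa5, known as BiP, is the main Hsp70 chaperone of the ER and holds the sensors inactive. It moved in opposite directions in the mouse lines. E0771 libraries were at 661, 705 and 690 CPM in control medium, 618, 611 and 662 with lean and 668, 700 and 730 with obese secretome. The fall of lean against obese was small (-0.15, SE 0.0398, edgeR adjusted p = 0.00267), without overlap. The fall against control (-0.12, edgeR adjusted p = 0.0125) overlapped, and is lost without control replicate 2 (0.07) or 3 (0.0604) or lean replicate 1 (0.0543) or 2 (0.075). NMuMG libraries rose from 544, 520 and 563 CPM in control medium to 640, 659 and 677 with lean, and were at 526, 554 and 571 with obese secretome. All lean NMuMG libraries were above all others, a log2 fold change of 0.26 over obese (SE 0.0347, edgeR adjusted p = 2.91e-07) and of 0.28 over control. The effect of lean against obese differed between the lines by -0.39 (SE 0.0559, edgeR adjusted p = 4.25e-07).

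Sdf2l1, which assists BiP as part of a chaperone complex, rose most of the members in NMuMG. Libraries there were at 22.9, 25.5 and 23.9 CPM in control medium, 33.3, 30.7 and 35.6 with lean and 21.9, 23.5 and 23.6 with obese secretome. Lean libraries were above all others, by 0.53 log2 units over obese (SE 0.0646, edgeR adjusted p = 4.48e-08), or 44.4%. In E0771 it was at 13.0, 13.9 and 12.0 CPM with lean, 14.0, 15.6 and 16.0 with obese secretome and 12.6, 14.0 and 14.7 in control medium. The fall of lean against obese there (-0.23, edgeR adjusted p = 0.0296) is lost in DESeq2 (adjusted p = 0.0528) and without lean replicate 1 (0.056) or 3 (0.12) or obese replicate 2 (0.0859) or 3 (0.124). Against control it was -0.08 (edgeR adjusted p = 0.448). The difference between the lines, -0.74 (SE 0.11, edgeR adjusted p = 6.46e-07), passed under each alternative tried.

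Hsp90b1, the ER form of Hsp90, and Calr, a calcium-binding chaperone of glycoproteins, fell with the lean secretome in both mouse lines. Hsp90b1 in E0771 was at 1088, 1116 and 1086 CPM in control medium, 928, 918 and 840 with lean and 1126, 1127 and 1151 with obese secretome, so no lean library reached any other. Lean over obese was -0.34 (SE 0.0369, edgeR adjusted p = 3.42e-08). In NMuMG it went from 824, 802 and 827 CPM to 681, 731 and 715 with lean, against 777, 804 and 834 with obese secretome (-0.18, SE 0.0328, edgeR adjusted p = 2.9e-05). The difference between lines, -0.14 (edgeR adjusted p = 0.024), is lost without E0771 lean replicate 3 (0.129), E0771 obese replicate 3 (0.0736), NMuMG lean replicate 2 (0.089) or NMuMG obese replicate 1 (0.0977).

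Calr in E0771 was at 956, 941 and 954 CPM in control medium, 828, 832 and 819 with lean and 1034, 1061 and 1078 with obese secretome, so that the 3 media were fully separated. It was lower with lean than with obese secretome by -0.36 (SE 0.0325, edgeR adjusted p = 2.45e-09). In NMuMG it was at 731, 733 and 737 CPM in control medium, 634, 643 and 640 with lean and 667, 733 and 739 with obese secretome. Obese replicate 1 was the lowest of its group there, still above each lean library, and lean over obese was -0.16 (SE 0.0335, edgeR adjusted p = 0.000301). Against control the fall was almost the same in the 2 lines, -0.20 in each, and its difference between lines was 0.02 (SE 0.0469, edgeR adjusted p = 0.781).

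Creld2, an ER protein with a disulfide isomerase-like role, rose with the lean secretome in both mouse lines. In E0771 it was at 39.4, 40.3 and 39.0 CPM in control medium, 48.6, 55.0 and 51.3 with lean and 43.4, 45.3 and 45.2 with obese secretome. Lean over obese was 0.21 (SE 0.055, edgeR adjusted p = 0.00233), with no overlap. NMuMG went from 47.1, 51.8 and 48.4 CPM to 59.1, 56.3 and 56.8 with lean, against 49.6, 45.9 and 47.4 with obese secretome (0.27, SE 0.049, edgeR adjusted p = 3.94e-05). The lines' difference in lean against obese was -0.04 (edgeR adjusted p = 0.742).

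Manf, a secreted ER stress-responsive factor, moved little. E0771 had 85.8, 90.6 and 93.1 CPM in control medium, 99.0, 99.4 and 98.1 with lean and 97.0, 95.3 and 102.7 with obese secretome. It was higher with lean than in control medium by 0.14 (edgeR adjusted p = 0.0122, or 0.0816 without control replicate 1), and lean and obese libraries overlapped (0.01, edgeR adjusted p = 0.91). In NMuMG it ranged from 115 to 124 CPM with lean and from 107 to 115 with obese secretome. Its rise of 0.10 (edgeR adjusted p = 0.0457) is lost in DESeq2 (0.0706), with no filter (0.0915), with only those groups in the fit (0.0653) and without lean replicate 1 (0.0666) or 2 (0.263) or obese replicate 1 (0.0693) or 2 (0.223). With the replicate block the adjusted p was 0.0556.

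Dnajb9, a co-chaperone of BiP that holds IRE1 in check, was the least abundant member per kilobase of exon. It was not called between lean and obese in either mouse line. E0771 had 13.8, 14.3 and 19.1 CPM with lean and 14.6, 14.0 and 16.0 with obese secretome, so lean replicate 3 alone stood high. The log2 fold change was 0.09 (edgeR adjusted p = 0.516) and -0.08 without that library (edgeR adjusted p = 0.501). In NMuMG it was at 13.5, 13.9 and 15.5 CPM with lean against 11.9, 12.2 and 13.0 in control medium. That rise (0.21, edgeR adjusted p = 0.0382) is lost in DESeq2 (0.0728), with no filter (0.0673) and without control replicate 1 (0.148) or 2 (0.0872) or lean replicate 2 (0.0532) or 3 (0.217).

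In NMuMG 5 members were higher and 2 lower with lean than with obese secretome, where 17.6% and 17.4% of the 15014 genes tested were. The median was 0.10 over the members and -0.00232 over all genes. Against control medium 4 members were higher and 4 lower, with 19.1% of all genes in each direction. The effect of lean against obese differed between E0771 and NMuMG for 7 of the 10 members, lower in E0771 each time, beside 34.2% of the 16529 genes tested in either direction. For lean against control it differed for 5, again lower in E0771, beside 34.5% of all genes. Those 5 were Herpud1, Sdf2l1, Xbp1, Pdia4 and Hspa5. Creld2 (0.18, edgeR adjusted p = 0.0512), Manf (0.09) and Calr (0.02) lay on the other side, higher in E0771, and were not called. Creld2 passed the threshold without E0771 lean replicate 1 (0.23, edgeR adjusted p = 0.0189), NMuMG control replicate 1 (0.21, 0.0372) or NMuMG lean replicate 1 (0.21, 0.0462).

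**Figure D2:**
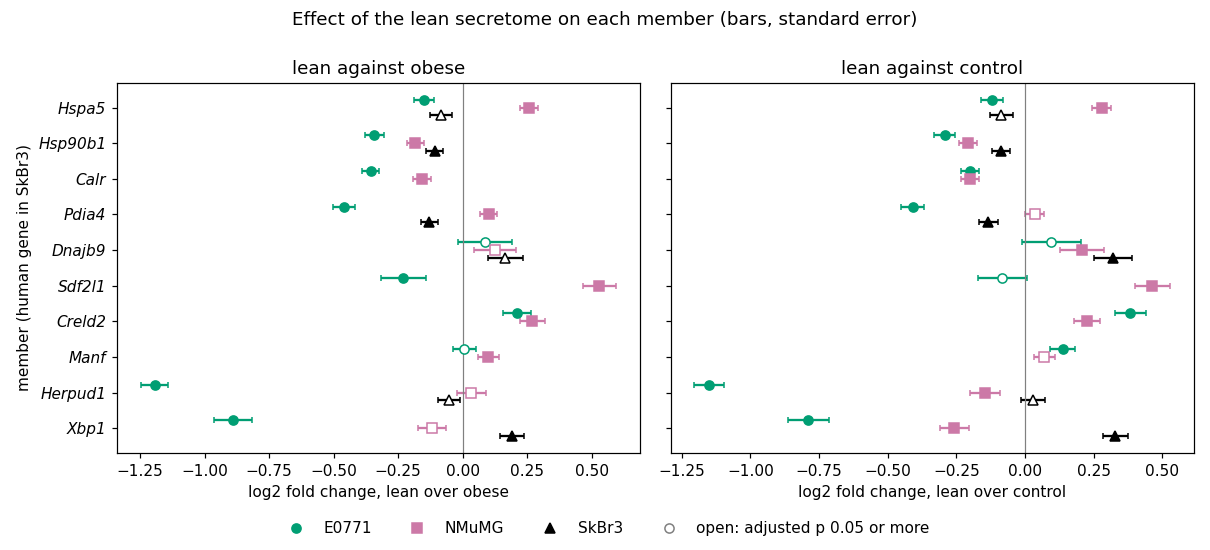
Log2 fold change of lean over obese secretome (left) and of lean over control medium (right) for each member, with standard error bars; circles are E0771, squares NMuMG and triangles SkBr3, and open symbols were not called. Herpud1 and Xbp1 in E0771 lie furthest to the left, at -1.19 and -0.89 for lean over obese, while the XBP1 triangle lies to the right of 0.

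Few members were called for the obese secretome against control medium. In E0771 all 10 fold changes were above 0, with a median of 0.0757 against -0.000391 over all genes, and 3 had an unadjusted p under 0.05. After adjustment edgeR called 1 of the 10 there, Calr (0.15, SE 0.0324, edgeR adjusted p = 0.00958), where 2.61% of all genes were called. That call is lost without control replicate 2 (0.0769) or obese replicate 3 (0.104). In NMuMG edgeR and DESeq2 each called 0 of the 10, with 2 at an unadjusted p under 0.05 in edgeR, and 5.01% of all genes were called. The nearest was Herpud1, at -0.18 (edgeR adjusted p = 0.0502), and leaving out obese replicate 2 brought Herpud1 (-0.22, 0.0159) and Xbp1 (-0.19, 0.0421) past the threshold. The effect of obese against control differed between E0771 and NMuMG for 1 member, Calr (0.21, edgeR adjusted p = 0.0119), beside 1.69% of all genes. Another 5 members reached only an unadjusted p under 0.05, and the median difference was 0.188 over the members and 0.00244 over all genes. It is lost without E0771 obese replicate 3 (0.0677) or NMuMG obese replicate 1 (0.0867).

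In SkBr3, XBP1 and DNAJB9 rose and PDIA4 and HSP90B1 fell with the lean secretome against control medium. Against the obese secretome 1 of the 6 human members was higher and 2 were lower, with 21.1% and 23.1% of the 14874 genes tested. Against control medium 2 were higher and 2 lower, with 23.7% and 25.1% of all genes. For obese against control edgeR and DESeq2 each called 0 of 6, with 2 at an unadjusted p under 0.05 in edgeR, beside 1.16% of all genes. XBP1 and DNAJB9 were those 2: with only those groups in the fit they passed, at 0.14 (edgeR adjusted p = 0.00416) and 0.16 (0.0397), and XBP1 also passed with no filter (0.0142).

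XBP1 was at 688, 664, 704 and 720 CPM in control SkBr3, at 893, 870, 775 and 949 with lean and at 776, 740, 775 and 765 with obese secretome. Lean libraries were above all control libraries, while lean replicate 3 lay within the obese range. The log2 fold change of lean over control was 0.33 (SE 0.0457, edgeR adjusted p = 4.99e-06) and that of lean over obese was 0.19 (SE 0.0456, edgeR adjusted p = 0.00188). Without lean replicate 3 they were 0.38 and 0.24. DNAJB9 showed the same low library: it was at 51.5, 46.6, 52.1 and 54.5 CPM in control medium, 67.9, 63.5, 53.2 and 70.1 with lean and 55.5, 55.1, 60.8 and 56.2 with obese secretome. Lean over control was 0.32 (SE 0.0704, edgeR adjusted p = 0.00105). Lean over obese was 0.17 (edgeR adjusted p = 0.0608), and passed without lean replicate 3 (0.24, edgeR adjusted p = 0.000181) or obese replicate 3 (0.20, 0.044), with library totals alone (0.20, 0.0287) and with no filter (0.16, 0.00832).

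PDIA4 was at 246, 238, 247 and 249 CPM with lean, 260, 271, 275 and 266 with obese secretome and 268, 259, 279 and 270 in control medium. All 4 lean libraries were below all others, by -0.13 log2 units against each group (SE 0.0343, edgeR adjusted p = 0.00409 against obese). HSP90B1 was at 1020, 999, 939 and 963 CPM with lean against 1052, 1060, 1098 and 1020 with obese and 1050, 1044, 1037 and 1037 in control libraries. Its fall against obese (-0.11, edgeR adjusted p = 0.012) is lost with library totals alone (-0.08, 0.0703). The fall against control (-0.09, edgeR adjusted p = 0.0355) is lost with library totals alone (-0.05, 0.238), with no filter (0.0676) and without any 1 control library (0.0672 to 0.0813), lean replicate 3 (0.082) or lean replicate 4 (0.0806). HSPA5 (-0.08 against obese, edgeR adjusted p = 0.119) and HERPUD1 (-0.05, edgeR adjusted p = 0.333) were not called. Without lean replicate 4, HSPA5 passed against obese (-0.11, 0.0446) and against control (-0.12, 0.0332).

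**Figure D3:**
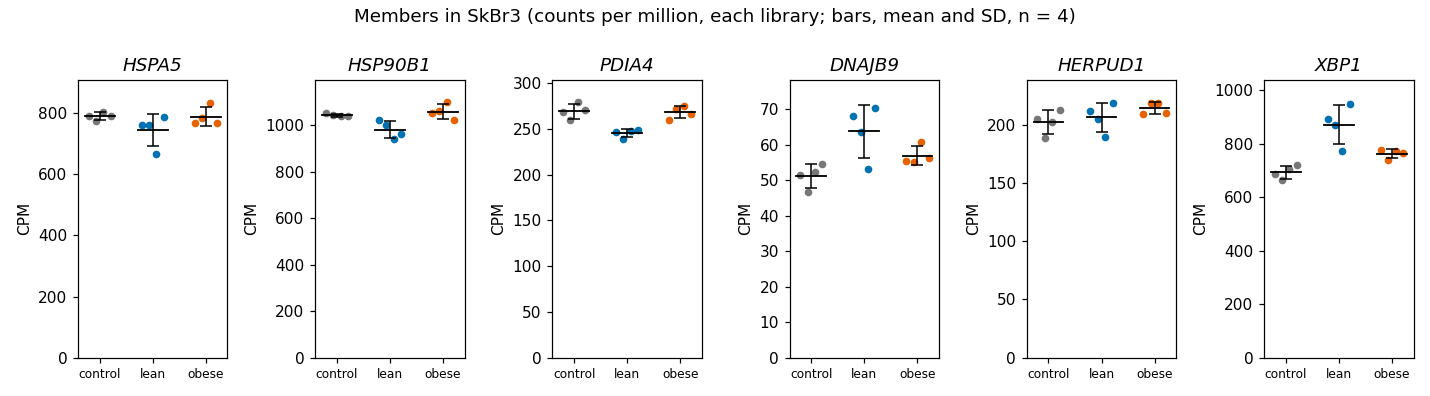
Level of the 6 human members in SkBr3 in CPM (vertical axis from 0); each point is 1 library, and bars show mean and SD (n = 4). The lean libraries of XBP1 lie above all control libraries, and those of PDIA4 lie below all control and obese libraries.

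Other genes of the ER did not all go the way of the members in E0771, as the plot of list shares shows. For lean against obese, 25.8% of all genes tested were higher and 26.9% lower in E0771, and 17.6% and 17.4% in NMuMG. Of 21 tested genes of ER-associated degradation, 14 were higher and 4 lower with lean than with obese secretome in E0771, with a median of 0.193 against 0.00347 over all genes. In NMuMG 13 were higher and edgeR called 0 lower (0 also at an unadjusted p under 0.05 and in DESeq2), with a median of 0.149. Ufd1, which helps extract ubiquitinated proteins, rose by 0.41 in E0771, and Os9, a lectin that delivers misfolded glycoproteins, fell by 0.29. In NMuMG Selenos, part of the retrotranslocation machinery, rose by 0.43. Of 27 genes of the translocon and of ER export, 14 were higher and 4 lower in E0771, and 12 higher and 1 lower in NMuMG, or 2 lower without lean replicate 2 or obese replicate 2. Srprb, a subunit of the signal recognition particle receptor, rose by 0.73 in E0771, and Sec24d, a coat protein of ER export vesicles, by 0.72 in E0771 and 0.45 in NMuMG.

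**Figure D4:**
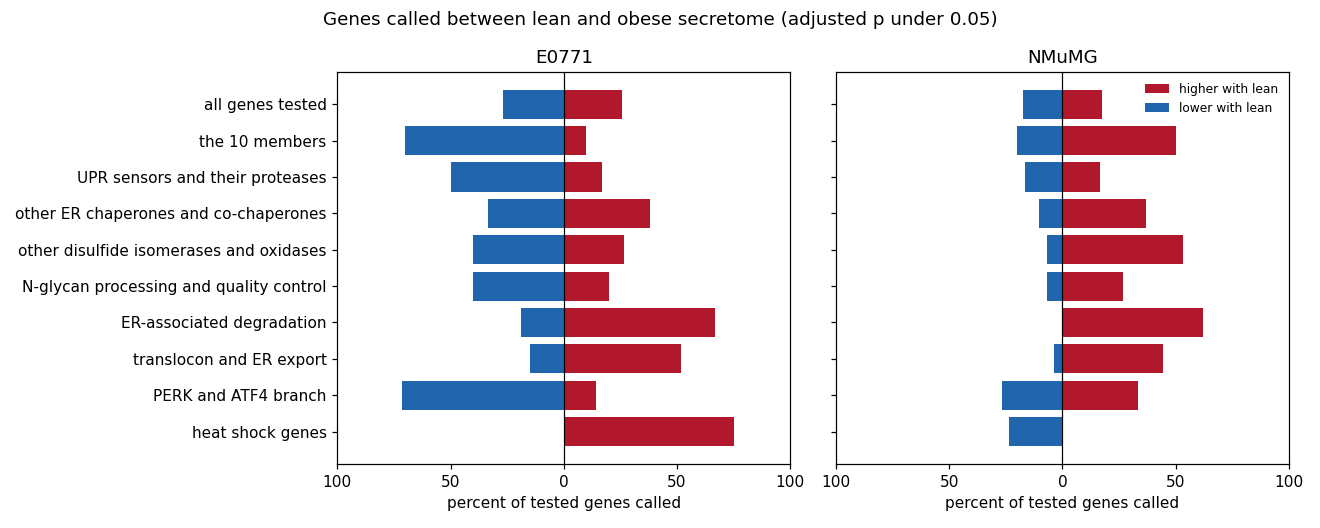
Percent of tested genes in each list called higher (red, to the right) or lower (blue, to the left) with lean than with obese secretome in E0771 (left) and NMuMG (right), beside all genes tested. In E0771 the members and the PERK and ATF4 branch lie mostly to the left and ER-associated degradation mostly to the right.

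In the lists that follow, the shares over all genes were again 25.8% higher and 26.9% lower in E0771, and 17.6% and 17.4% in NMuMG. The other ER chaperones were split in E0771, with 8 of 21 higher and 7 lower. With 1 library left out the count lower was 5 to 8, and under the other alternatives it was 5 to 6. Fkbp11 rose by 0.72 and Fkbp2 fell by 0.58, both prolyl isomerases. In NMuMG 7 of 19 were higher and 2 lower, or 1 lower in DESeq2, with library totals alone, with only those groups in the fit and without any NMuMG library of these media other than lean replicate 3. The oxidoreductases beside Pdia4 were also split in E0771 (4 of 15 higher, 6 lower), where Ero1l, an ER oxidase, rose by 0.66 and Pdia6 fell by 0.28. In NMuMG 8 of 15 were higher and 1 lower, Prdx4 (-0.36), and 2 were lower without lean replicate 3 or obese replicate 1. Qsox1, a sulfhydryl oxidase, was among those that rose there (0.41). Of 15 genes of N-glycan processing, 3 were higher and 6 lower in E0771. In NMuMG 4 were higher and 1 lower, Rpn2 (-0.08, edgeR adjusted p = 0.0453), and under the alternatives tried 0 were lower, except for 1 without obese replicate 2. Ganab, a subunit of glucosidase II, fell by 0.30 in E0771.

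The sensors changed unequally. In E0771, Ern1 rose by 0.37 (SE 0.0649, edgeR adjusted p = 3.95e-05) with lean against obese secretome and Eif2ak3 fell by 0.38 (SE 0.0556, edgeR adjusted p = 3.38e-06), while Atf6 was at -0.07 (edgeR adjusted p = 0.198). Mbtps1, the protease that makes the first cut in ATF6, fell by 0.71 (SE 0.044, edgeR adjusted p = 6.08e-12). In NMuMG Atf6 rose by 0.24 (edgeR adjusted p = 5.16e-06) and Mbtps1 fell by 0.20, whereas Ern1 (-0.12, edgeR adjusted p = 0.0724) and Eif2ak3 (0.04, edgeR adjusted p = 0.658) were not called. For all 4 of these genes the effect differed between the lines, by 0.51 for Ern1, -0.40 for Eif2ak3, -0.30 for Atf6 and -0.50 for Mbtps1 (E0771 minus NMuMG, edgeR adjusted p from 4.13e-09 to 0.000106).

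Genes of the PERK and ATF4 branch went down in E0771 alongside the members: 10 of 14 were lower and 2 higher with lean than with obese secretome, beside 26.9% and 25.8% of all genes, with a median of -0.477. Chac1, a glutathione-degrading enzyme, fell by 1.31 and Sesn2, a stress-induced regulator of growth signalling, by 0.96. Atf3 (1.40) and Ppp1r15a (0.62), which restores translation after PERK signalling, were those that rose. In NMuMG 5 of 15 were higher and 4 lower, beside 17.6% and 17.4% of all genes. With 1 library left out the count higher was 3 to 4 (3 without lean replicate 3) and the count lower 4 to 5. Under the other alternatives the count higher was 4 to 5. Trib3 (0.56) and Ddit3 (0.45), both known ATF4 targets, rose there, and Atf4 fell by 0.27. The effect differed between the lines for 12 of the 15 genes, lower in E0771 for 10 and higher for 2, beside 34.2% of all genes in either direction.

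Genes with ERSE in the promoter, the 4 members included, showed both directions. Of 17 tested in E0771, 3 were higher and 8 lower with lean than with obese secretome, beside 25.8% and 26.9% of all genes, with a median of -0.113 against 0.00347. Of 16 tested in NMuMG, 7 were higher and 4 lower, beside 17.6% and 17.4% of all genes, with a median of 0.138 against -0.00232. Beside Hspa5, the co-chaperone Dnajc3 and the degradation ligase Syvn1 carry the element, with 0.18 and 0.27 in NMuMG and -0.11 and -0.06 in E0771. In E0771 Syvn1 was not called (edgeR adjusted p = 0.311) and Dnajc3 was only just past the threshold (edgeR adjusted p = 0.0489). For lean against control in E0771, Dnajc3 was at -0.006 (edgeR adjusted p = 0.929). Pdia6, a disulfide isomerase, also carries it, at -0.28 in E0771 and 0.09 in NMuMG, both called. Canx, a membrane-bound relative of Calr with the element, went the other way, up by 0.25 in E0771 (edgeR adjusted p = 7.52e-07) and at 0.03 in NMuMG (edgeR adjusted p = 0.514). Hnrnpa3 fell in both lines, by 0.25 in E0771 and 0.28 in NMuMG, and so did Pan2 (-0.20 in E0771 and -0.23 in NMuMG). Other holders called in 1 line were Acacb (1.47) and Xlr3a (-0.455) in E0771, and Spats2l (0.31) and Zfp57 (0.18) in NMuMG. All of these were named after their values were seen.

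Over the 18 mouse libraries, centred within each line, Pdia4 followed the mean of the members most closely (Pearson r = 0.949), then Herpud1 (0.923) and Xbp1 (0.88). These values are a description, since each member is part of that mean. Creld2 went against it (-0.371), and Manf (-0.0339) and Dnajb9 (-0.0732) did not follow it. Of the 12433 genes compared, those with a low mean level or only a clone, model or ID name were left out of the ranking that follows. Among the rest, the non-members most like the mean were Mroh1 (0.962), Timm17b (0.962), Arf5 (0.961), Acp2 (0.958) and Arsa (0.954). The libraries share medium and line, and the 3 lean E0771 libraries had the lowest member means (-0.219 to -0.16 log2 units).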

How the data were processed

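Poly(A) RNA of 30 libraries was sequenced in paired 150 bp reads with a directional kit, per the labels' protocols. The authors deposited raw counts per Ensembl gene ID; cutadapt 1.16, STAR 2.7.9a and featureCounts 1.6.3 are named in the submitters' processing notes, with GRCm39 as the only build, also for the human libraries. The human build, the annotation and the strand setting of the counting are not given in the sources used here.

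Each line was fitted alone over its 3 media in edgeR 4.0.16 (R 4.3.3): filterByExpr, TMM factors, robust quasi-likelihood F tests, Benjamini-Hochberg over all genes, threshold 0.05. A fit of the 18 mouse libraries in 6 groups (16529 genes) tested differences between lines. The alternatives were DESeq2 1.42.0, its size factors in edgeR, library totals alone, no filter, a replicate block, only the groups compared, and each library left out; they were also run on the list counts, a step added after seeing the data, but not on the lists' differences between lines. The fit was tested on simulated data. CPM were taken on TMM-scaled totals, log2 CPM with a prior count of 2.

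The members and lists were chosen with earlier results of these data known, and the lists were written from general knowledge. Named list genes are, per list, line and contrast, up to 2 called rises and 2 called falls of largest size, with the sensors; Pdia6, Dnajc3 and Syvn1 are also named as holders of the promoter element or list members. The names Ero1l, Ero1lb and H13 follow the table of symbols (GENCODE M21, GRCm38), which named 52073 of 56980 mouse IDs and gave exon lengths by ID. Human IDs were not paired with names here, so lists and markers were run in mouse only. Intervals cover spread between libraries and counting error; reads carry no molecular identifiers.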

Additional observations from a re-analysis of the deposited data

Results flagged for a closer look

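The effect of the lean against the obese secretome differed between the mouse lines (E0771 minus NMuMG, in the 6-group edgeR fit) for Herpud1 (-1.21), Xbp1 (-0.756), Sdf2l1 (-0.745), Pdia4 (-0.544), Hspa5 (-0.392), Calr (-0.182) and Hsp90b1 (-0.142). For lean against control it differed for Herpud1 (-0.979), Sdf2l1 (-0.52), Xbp1 (-0.506), Pdia4 (-0.418) and Hspa5 (-0.375), and for obese against control for Calr (0.206). These are log2 units.

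Some genes moved in opposite directions in SkBr3 and a mouse line, with every library of one group above or below every library of the other; the difference between species was not tested. PDIA4 went by -0.129 in SkBr3 and Pdia4 by 0.1 in NMuMG for lean against obese. For lean against control, XBP1 went by 0.329 in SkBr3 and Xbp1 by -0.789 in E0771 and -0.258 in NMuMG. For obese against control, XBP1 went by 0.138 in SkBr3 and Xbp1 by -0.14 in NMuMG, neither of them called.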

How the results depend on the processing

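No member changed direction past the threshold under any alternative. Of the members' tests, called or not, 117 stayed on their side of the threshold with the replicate block and 1 lost its call, Manf in NMuMG for lean against obese (0.0997). Same-numbered libraries of different media were not treated as paired in the main fits. Correlations of their deviations ranged from -0.0942 to 0.11, which cannot show whether the cultures or secretomes were paired. With DESeq2 114 stayed and 4 calls were lost. Over the fits with 1 library left out, 875 stayed, 38 calls were lost and 11 gained. For obese against control, the 0 calls in SkBr3 became 1 with no filter and 2 with only those groups in the fit. The 0 in NMuMG became 1 with library totals alone, no filter or only those groups, and 0 to 2 with each library left out. The 1 in E0771 and the 1 in the difference between lines became 0 to 1. The cause was not tested. The alternatives moved the median of all genes by at most 0.0389 within a line. In E0771 the lean-against-obese count of ER-associated degradation genes that were higher was 13 to 14 under each alternative, and that of PERK and ATF4 genes that were lower was 10. With 3 or 4 libraries a group, small differences such as those of Manf and Dnajb9 are at the limit of what could be called.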

Other observations

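A list of 17 heat shock genes held chaperones of the cytosol, the mitochondrial pair Hspd1 and Hspe1, and Hsf1, the transcription factor of the heat shock response. Of 16 tested in E0771, 12 were higher with lean than with obese secretome and edgeR called 0 lower (0 also at an unadjusted p under 0.05 and in DESeq2). Among all genes tested there, 25.8% were higher and 26.9% lower. The list had a median of 0.208 against 0.00347 over all genes. Over the alternatives the count higher was 9 to 14 and the count lower was 0, except for 1 without lean replicate 3. Hspa1b, an inducible Hsp70, was at 23.6 ± 10.3 CPM (SD, n = 3) with lean and 10.9 ± 1.5 with obese secretome, and shares most of its sequence with Hspa1a, so reads may be split between them. Against control medium, Hsph1, an Hsp70 exchange factor, was at 829 ± 136 CPM (SD, n = 3) with lean and 404 ± 14.3 in control libraries, a log2 fold change of 1.04.

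In NMuMG edgeR and DESeq2 each called 0 of the 17 list genes higher with lean than with obese secretome (0 at an unadjusted p under 0.05) and 4 lower. Among all genes tested there, edgeR called 17.6% higher and 17.4% lower. Hspa8, the constitutive Hsp70, fell by 0.29 and Hspd1, a mitochondrial chaperonin, by 0.15. The effect of lean against obese differed between the lines for 15 of the 17 genes, higher in E0771 each time, beside 34.2% of all genes in either direction.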
